A study of Mus musculus with 17 samples.

Results

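The immunoglobulin constant-region genes and the joining chain gene were described in sorted cells of mouse lung tumors. The 10 members were named one by one, not picked by a threshold on their values, though with earlier results of these data known: the heavy-chain constant genes Ighm, Ighd, Ighg3, Ighg1, Ighg2b, Ighg2c and Igha, the light-chain constant genes Igkc and Iglc2, and Jchain. Of the 10, 9 were among the 17555 genes listed for at least 1 of 3 cell populations. All members but Ighd, which was in none of the 3 tables, were listed in tumor cells (9 of 16410 genes), while 5 were listed in TRMs (of 13545) and 7 in MDMs (of 13407). Every gene whose length was known (99.99% of those in the tumor cell table, 95.7% in TRMs and 93.9% in MDMs) was above 1 CPM (reads scaled to library size) in at least 2 of 4 libraries, and no value can be given for a member that a table does not list.

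The study asked how loss of Gpx4, a lipid peroxidase that protects cells from ferroptosis, changes lung tumors and the immune cells in them. Both groups were C57BL/6 mice of a lung tumor model named KL, which carry Lkb1fl/fl so that Cre deletes Lkb1 (gene symbol Stk11). KLG4 mice carried in addition Gpx4m/m, an allele with rox sites around 3 exons of Gpx4 and a tamoxifen-dependent Dre recombinase, driven by a CAG promoter, that Cre switches on. All mice received Ad-Cre, an adenovirus carrying Cre, through the nose and then tamoxifen, KL controls included, and cells were taken 10 weeks after the virus. Delivery of the virus to the airways, not a cell-type promoter, set which cells were recombined. Mice were 8 to 10 weeks old when they received the virus, and the methods describe the groups as matched for sex. RNA from 2 libraries per genotype was sequenced for tumor cells, for resident macrophages (TRMs) and for monocyte-derived macrophages (MDMs), 12 libraries in 6 groups. Tumor cell RNA is described as from 2 mice per group, which matches the 2 libraries of a genotype, although no label ties a library to a mouse. Each tumor cell library held both the female-specific RNA Xist (4.17 to 6.18 RPKM) and the Y-linked Eif2s3y (7.27 to 9.26 RPKM). A library thus cannot be taken as 1 animal, and p-values in tumor cells may not measure the spread between animals. For TRMs and MDMs the sources used here do not say whether the 2 libraries of a group came from separate animals, and p-values there measure only the spread between these libraries, which may be technical. The 5 other samples of the series (CD8+ T cells and monocytes) were not analysed here.

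Antibodies are made by B cells and, in large amounts, by plasma cells, the secreting cells that B cells turn into. The heavy-chain constant genes lie in a row on one chromosome, and a B cell starts with the mu and delta genes (Ighm and Ighd, for IgM and IgD) and can switch by deletion to a gamma gene (IgG subclasses) or to the alpha gene (IgA). Ighg2c is the gene that C57BL/6 mice carry in place of Ighg2a, beside the separate gene Ighg2b. Each heavy chain pairs with a kappa light chain (Igkc) or a lambda light chain (Iglc genes), and kappa predominates in mice. The joining chain links units of IgM and of IgA into larger forms, which the receptor Pigr carries across epithelia into mucosal fluid.

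All heavy-chain members lie on chromosome 12 of GRCm38, the build whose coordinates match those of the tables. From Ighm (113418558 to 113422730) they run through Ighg3 (113359575 to 113361232 as counted), Ighg1 (113325240 to 113330523), Ighg2b (113302965 to 113307933) and Ighg2c (113285325 to 113288932) to Igha (113254830 to 113260236), all on the minus strand. Igkc lies on chromosome 6 (70726435 to 70726966, plus strand), Iglc2 on chromosome 16 (19198396 to 19200351, minus strand) and Jchain on chromosome 5 (88519809 to 88527891, minus strand). The end of the secreted coding sequence shows which chains the joining chain can bind, because secreted mu and alpha chains end in a short tail whose next-to-last residue is a cysteine that bonds with it, and gamma chains have no such tail. These exonic sequences (GENCODE annotation of GRCm38, each read 5′ to 3′ along the gene) lie at chr12:113420867-113420920 for Ighm, chr12:113258768-113258821 for Igha and chr12:113306389-113306442 for Ighg2b. Capitals mark the codon before the last amino acid codon.
Ighm: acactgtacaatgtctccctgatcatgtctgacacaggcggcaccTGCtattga
Igha: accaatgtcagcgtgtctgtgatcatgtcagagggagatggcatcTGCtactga
Ighg2b: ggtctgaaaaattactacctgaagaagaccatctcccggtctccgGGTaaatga
Ighm and Igha carry TGC, a cysteine codon, at this place and Ighg2b carries GGT.

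The lambda genes are shown because reads of near-identical copies may not be assigned to the right one. Over their aligned coding sequences Iglc2 and Iglc3 were identical at 306 of 317 bases (96.5%), with an identical run of 79 bases. In the same way Iglc2 and Iglc1 were identical at 73.2%, and the untranslated parts were not compared. The windows below are 150 bases of coding exon, the length of a read, at chr16:19198698-19198847 (Iglc2), chr16:19065527-19065676 (Iglc3) and chr16:19061917-19062066 (Iglc1), all on the minus strand. Capitals mark bases that differ from Iglc2.
Iglc2: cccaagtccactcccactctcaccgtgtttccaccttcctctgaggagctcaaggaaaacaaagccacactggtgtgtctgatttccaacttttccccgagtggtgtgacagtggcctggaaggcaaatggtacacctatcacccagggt
Iglc3: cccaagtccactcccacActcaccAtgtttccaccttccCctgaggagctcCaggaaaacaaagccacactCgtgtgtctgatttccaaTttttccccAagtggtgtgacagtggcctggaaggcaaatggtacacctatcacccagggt
Iglc1: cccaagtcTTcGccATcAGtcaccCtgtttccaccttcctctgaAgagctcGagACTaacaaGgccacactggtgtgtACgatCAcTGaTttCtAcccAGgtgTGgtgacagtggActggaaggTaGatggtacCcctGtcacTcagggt
Iglc3 differs from Iglc2 at 7 of the 150 bases and Iglc1 at 33, and how reads of the pair were assigned was not tested, so their values are uncertain. Among the gamma genes, by coding sequence, Ighg2b and Ighg2c were most alike (85.9% identical, longest identical run 78 bases). The other 5 pairs were 74.8% to 77.5% identical.

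Levels are RPKM as deposited, reads scaled to gene length and to library size. The depth recovered from the values was 15.9 to 36.6 M reads in tumor cells, 9.14 to 26.8 M in TRMs and 10.4 to 26.1 M in MDMs (M, mega). Tests compared KLG4 with KL within each table by limma on log2(RPKM + 0.1), with Benjamini-Hochberg adjustment over the tested genes of that table (those at 1 RPKM or more in at least 2 of 4 libraries). A log2 fold change is on that scale and understates the change of a gene near 0. With 2 libraries a group, an exact two-sided permutation test of a single value cannot go below p = 0.333, so none was used. Several library features bear on what follows. The 2 KLG4 tumor cell libraries differed from each other by little more than counting noise (chi-square per gene 3.28, against 28.9 to 131.6 in the other 5 pairs). In TRMs sex and genotype cannot be told apart: the female-specific RNA Xist was at 0.257 and 0.501 RPKM in the KL libraries but at 18.3 and 20.2 RPKM in the KLG4 ones. In MDMs it was at 0.839 RPKM in KL replicate 2 and at 19.4 to 21.8 RPKM in the other 3 libraries. Mitochondrial genes took 31.5% and 22.3% of reads in KL TRMs and 2.95% and 5.78% in KLG4 TRMs. Gpx4, the targeted gene, was at 94.95 and 76.8 RPKM in KL tumor cells and at 56.4 and 61.9 RPKM in KLG4 (log2 fold change -0.53, adjusted p 0.036 in limma), and its value includes exons that the allele keeps. That call was lost outside mitochondrial reads (adjusted p 0.072) and with the KLG4 libraries averaged into 1 sample (0.24). The labelled cell types were checked against markers. TRM libraries held the alveolar macrophage genes Ear2 (4093 to 4785 RPKM) and Chil3 at high levels, but MDM libraries held the neutrophil gene S100a9 at 9379 to 21106 RPKM.

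Antibody genes were abundant in KLG4 tumor cells and far lower in KL tumor cells. Reads of the members made up 0.256% (95% Wilson interval 0.254% to 0.259%) and 0.261% (0.259% to 0.264%) of all reads in the 2 KLG4 libraries. They made up 0.000871% (0.000781% to 0.000972%) and 0.00424% (0.00401% to 0.00448%) in the KL libraries. These intervals cover counting error only and are too narrow, because 2 mates of one fragment were mostly counted as 2 reads. All 9 listed members lay higher in both KLG4 libraries than in either KL library, as did 34.3% of all genes listed, and all 9 had an adjusted p under 0.05, against 20.6% of tested genes called higher. Of the 9 members, 8 reached the filter of 1 RPKM only with the help of KLG4 libraries. Of these, 5 were under 1 RPKM in both KL libraries and so had to differ. The counts are a description of the list for that reason. In these bulk samples more cells of a type and more RNA per cell cannot be told apart.

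**Figure D1:**
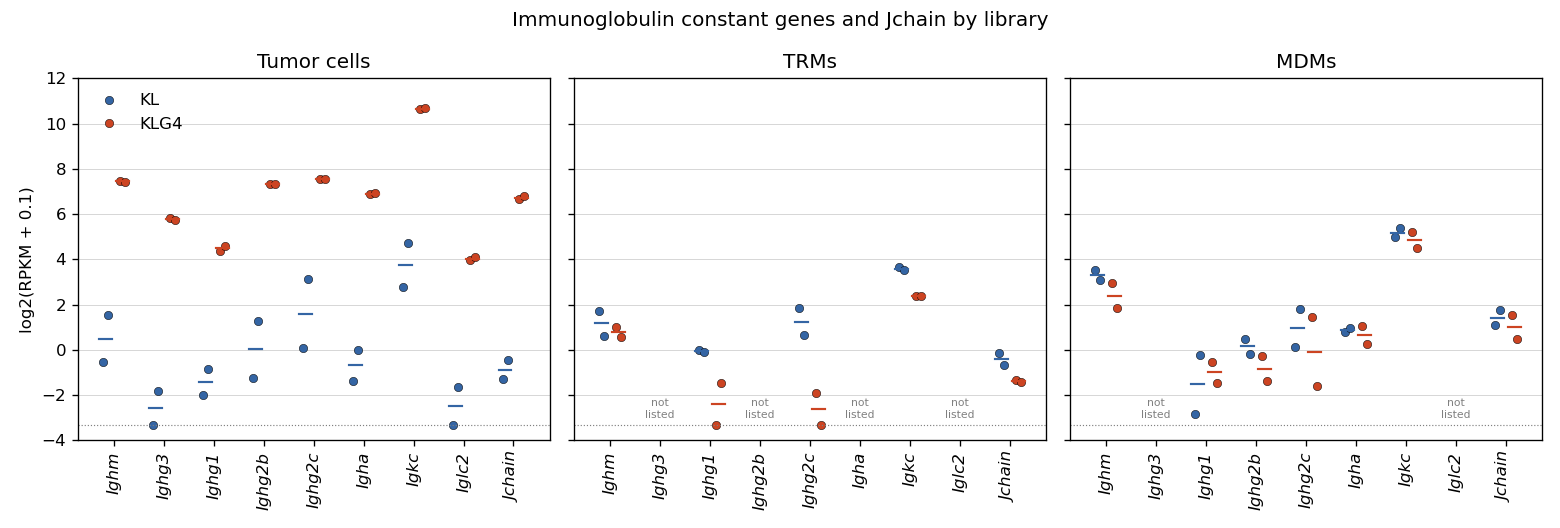
Level of each listed member in each library, as log2(RPKM + 0.1), in tumor cells, TRMs and MDMs (points are libraries, bars are means of the 2 libraries of a genotype, and the dotted line is a value of 0). In tumor cells the KLG4 points lie far above the KL points for all 9 members, whereas in TRMs and MDMs no member has both KLG4 points above both KL points.

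The mu gene Ighm, which encodes the heavy chain of IgM, was at 0.579 and 2.80 RPKM in KL tumor cells and at 177 and 173 RPKM in KLG4. The log2 fold change was 6.96 (SE 0.65), with an adjusted p of 0.0011 in limma. Both KLG4 libraries lay far above the KL pair, and the mean was 103 times as high.

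The 4 gamma genes, for the IgG subclasses, were all higher in KLG4 tumor cells and differed in level among themselves. Ighg2c was at 0.947 and 8.60 RPKM in KL and at 189.7 and 188 RPKM in KLG4. Its log2 fold change was 5.97 (SE 0.94, adjusted p 0.0060 in limma), the widest error of the members on this scale, and the 2 KL libraries differed 9.08 times. With the 2 KLG4 libraries averaged into 1 sample its adjusted p was 0.064 in limma, while the other 8 members passed (as did 11.5% of tested genes in that direction). Ighg2b was at 0.326 and 2.31 RPKM in KL and at 159 and 161 RPKM in KLG4 (log2 fold change 7.30, SE 0.77, adjusted p 0.0016 in limma). Ighg3 was listed at 0 in one KL library and at 0.183 RPKM, 6 reads, in the other, and stood at 57.2 and 53.6 RPKM in KLG4. Its log2 fold change was 8.36 (SE 0.49, adjusted p 3.4e-04 in limma), the highest of the members, but that place rests on the pseudocount. With a pseudocount of 1 the value was 5.70, below Igkc (6.81), Igha (6.27), Ighg2b (6.26), Jchain (6.20) and Ighm (6.16). Ighg1 was the lowest of the gamma genes in KLG4, at 20.5 and 24.2 RPKM, and was at 0.148 and 0.459 RPKM in KL (5.91, SE 0.40, adjusted p 4.8e-04 in limma).

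Igha, which encodes the heavy chain of IgA, the class of mucosal surfaces, was at 0.287 and 0.905 RPKM in KL tumor cells and at 118 and 122 RPKM in KLG4. The log2 fold change was 7.59 (SE 0.44, adjusted p 3.4e-04 in limma). Jchain, whose product joins the units of IgA and IgM, moved by nearly the same amount, from 0.304 and 0.631 RPKM to 101 and 112 RPKM (7.61, SE 0.30). Its adjusted p of 1.3e-04 in limma was the lowest of the members. Pigr, the receptor that carries such joined antibodies, was at 39.5 and 38.1 RPKM in KL and at 81.9 and 76.5 RPKM in KLG4 tumor cells (log2 fold change 1.03, SE 0.11, adjusted p 0.0017 in limma).

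Igkc, the constant gene of kappa light chains, was the highest member in every library. In tumor cells it was at 6.72 and 26.3 RPKM in KL and at 1613 and 1640 RPKM in KLG4 (log2 fold change 6.92, SE 0.60, adjusted p 9.1e-04 in limma). It ranked 34 and 33 of 16410 genes in the KLG4 libraries and 5480 and 1983 in the KL libraries. Iglc2, a lambda constant gene, was listed at 0 and at 0.216 RPKM (4 reads) in KL and at 15.6 and 17.04 RPKM in KLG4 (6.53, SE 0.54, adjusted p 7.9e-04 in limma). Of the other lambda genes, Iglc1 was higher than Iglc2, at 0.241 and 0.583 RPKM in KL against 80.9 and 72.6 RPKM in KLG4, and Iglc3 was at 0 and 0.0731 RPKM in KL against 12.8 and 16.7 RPKM in KLG4. The constant gene of IgE, Ighe, was listed at 0 in both KL libraries and at 9.62 and 11.5 RPKM in KLG4, at least 159-fold higher when each KL library is set to a floor of 3 reads. Ighg2a and Iglc4 were in none of the tables.

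**Figure D2:**
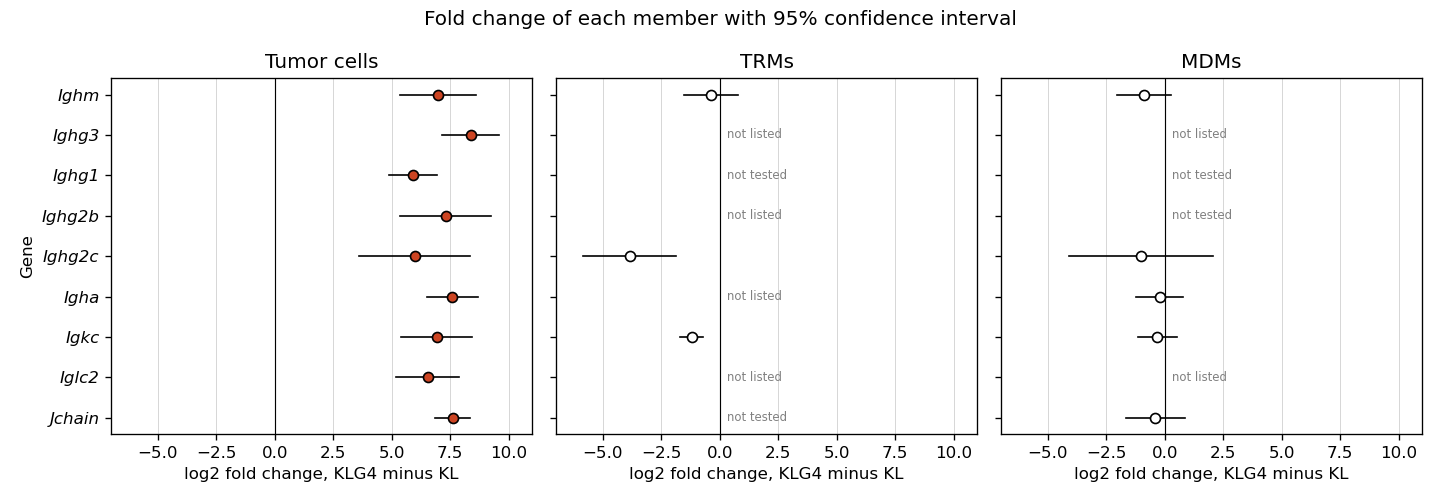
Log2 fold change (KLG4 minus KL) of each member with its 95% confidence interval from limma, in each population. Filled points have an adjusted p under 0.05; in tumor cells all intervals lie above 3.61, in TRMs the intervals of Igkc and Ighg2c lie below 0, and in MDMs all cross 0.

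The order of mean levels in KLG4 tumor cells was Igkc (1626 ± 19.4 RPKM, SD, n = 2), Ighg2c (188.9 ± 1.13), Ighm (174.6 ± 2.96), Ighg2b (160.1 ± 1.28), Igha (119.9 ± 2.61), Jchain (106.2 ± 7.48), Ighg3 (55.4 ± 2.55), Ighg1 (22.3 ± 2.63) and Iglc2 (16.3 ± 1.05). No neighbours in that order overlapped between the 2 libraries, which themselves differed little. In KL tumor cells Igkc (16.5 ± 13.8) was again first and Ighg2c (4.77 ± 5.41) second, but every neighbouring pair overlapped. All 9 members were higher in KL replicate 2 than in KL replicate 1, by 2.08 to 9.08 times where both were above 0. Of 6 leukocyte genes, 5 were also higher in replicate 2, by up to 2.48 times (Ptprc, which encodes CD45).

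The make-up of the heavy-chain level was compared within libraries, as the percent of the summed RPKM of the heavy-chain members. In KLG4 tumor cells IgG genes made up 59.1% and 59.2%, Ighm 24.5% and 23.9%, and Igha 16.4% and 16.9%. In KL tumor cells IgG genes made up 62.1% and 75.7%, Ighm 25.3% and 18.4%, and Igha 12.5% and 5.93%. Both genotypes thus had all 3 classes, with IgG first. Of the whole heavy-chain level, Ighg2c alone made up 41.4% and 56.4% in KL and 26.3% and 26.1% in KLG4, and Ighg3 0% and 1.20% against 7.93% and 7.43%. The KL shares rest on 160 and 807 reads in all, and these differences between genotypes were not tested.

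The shares depend on which exons were counted. The counted lengths of Igha (2668 bases), Ighg2b (2678) and Ighg1 (2592) include exons of the membrane form and long annotated ends, while that of Ighg3 (1082) covers the secreted form alone. When reads were divided by the length of the shortest annotated transcript, an alternative chosen after seeing the data, Ighg2b came first in KLG4 tumor cells (31.2% and 31.3%) and Igha second (23.4% and 23.9%), ahead of Ighg2c (18.5% and 18.2%) and Ighm (18.2% and 17.6%). The order of the heavy-chain genes is therefore uncertain.

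**Figure D3:**
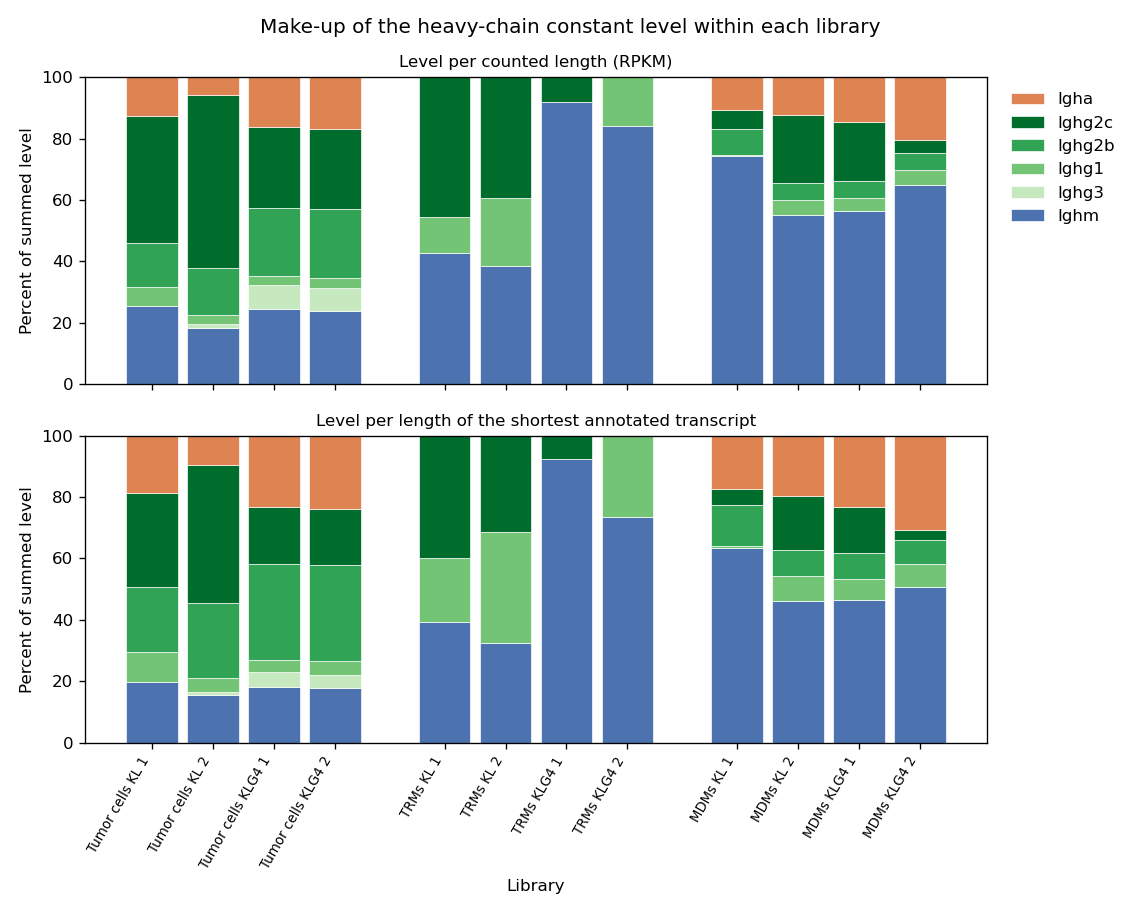
Percent of the summed heavy-chain constant level taken by each gene in each of the 12 libraries, from RPKM (top) and from reads divided by the length of the shortest annotated transcript (bottom). Ighm takes 84.2% and 92.0% in KLG4 TRMs and 55.2% to 74.4% in MDMs by RPKM; in KLG4 tumor cells IgG genes take 59.1% and 59.2%, and the order of Ighg2b, Igha, Ighg2c and Ighm differs between the panels.

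The proportions of light chains and Jchain were compared in the same way, with no test. Igkc was 2.94 and 1.72 times the summed heavy-chain level in KL tumor cells and 2.24 and 2.27 times in KLG4. Iglc2 made up 0.955% and 1.03% of the Igkc and Iglc2 level in KLG4. Together Iglc1, Iglc2 and Iglc3 made up 6.34% and 6.09% of the light-chain level there, against 3.45% and 3.21% in KL. In KL replicate 1 that lambda share rests on 4 reads, all of Iglc1. In KL replicate 2 it rests on 8 reads of Iglc1, 4 of Iglc2 and 1 of Iglc3. Jchain stood at 6.26% and 6.80% of the Igkc level in KLG4 and at 4.52% and 2.40% in KL. All 140 V, D and J segments listed in tumor cells were tested, and 138 were called higher in KLG4, against 20.6% of tested genes. Of the 140, 115 were under 1 RPKM in both KL libraries and were tested only because of their KLG4 levels.

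Markers of antibody-making cells moved with the members, from low levels. Of the 14 genes of a B cell list, 12 were listed, 4 passed the filter and 4 were called higher in KLG4 tumor cells (median log2 fold change 3.26, against -0.09 over all tested genes, of which 20.6% were called higher). All 4 were under 1 RPKM in both KL libraries and passed the filter only through KLG4, so that count is a description. Cd79a, a chain of the B cell receptor complex, rose by 3.22 on the log2 scale to 1.98 and 1.595 RPKM, and the transcription factor Ebf1 rose by 3.29 to 1.09 and 1.15 RPKM. Cd79b, the partner of Cd79a, rose by 0.85. The B cell list summed to 10.9 and 10.2 RPKM in KLG4 and to 1.93 and 2.73 RPKM in KL, while Vpreb3 was in no table.

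Of the 14 genes of a plasma cell list, 12 were tested, 9 were called higher and 1 lower in KLG4 tumor cells (median 2.32, against 20.6% of tested genes called higher). Of the 9, 8 were under 1 RPKM in both KL libraries and passed the filter only through KLG4, so these counts too are a description. Mzb1, an endoplasmic reticulum protein that helps antibody assembly, was at 0.121 and 0.658 RPKM in KL and at 11.7 and 10.8 RPKM in KLG4 (log2 fold change 4.79, SE 0.57, adjusted p 0.0024 in limma). Irf4, a transcription factor of plasma cells and activated lymphocytes, rose by 4.42, Slamf7 by 3.98 and Pou2af1, a coactivator in B cells, by 3.84. Xbp1, which drives the secretory programme and is also expressed by epithelium, was at 36.6 and 40.3 RPKM in KL and at 37.5 and 35.6 RPKM in KLG4 (adjusted p 0.66 in limma). The lower gene was Sdc1, a surface marker of plasma cells that epithelial cells also carry, at 180.4 and 166.5 RPKM in KL and 68.4 and 67.1 RPKM in KLG4. Through Sdc1 the summed level of the list was lower in KLG4 (154.2 to 158.8 RPKM) than in KL (226.6 to 239.3 RPKM), the opposite of its count and median. Tnfrsf17 and Fcrl5 were in no table.

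Genes for B cell survival and recruitment were also higher in KLG4 tumor cells, where 9 of 10 tested genes were called (median 3.35), against 20.6% of tested genes. Of the 10, 7 were under 1 RPKM in both KL libraries and were tested only because of their KLG4 levels. Cxcl13, a chemokine that draws B cells, was at 0.855 and 0.288 RPKM in KL and at 12.2 and 11.8 RPKM in KLG4 (log2 fold change 4.31). Cxcl12, which holds plasma cells in their niches, rose by 3.91, Ltb (lymphotoxin beta) by 3.52 and Tnfsf11 by 3.41. Of 8 genes for class switching and germinal centres, 5 were listed and only Bcl6 was tested, at 4.43 and 3.44 RPKM in KL and 4.95 and 4.58 RPKM in KLG4 (adjusted p 0.29 in limma).

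The gate for tumor cells is given as CD45-CD31-EpCAM+ (1 passage of the methods has CD45.2+), and genes of other cell types moved with the members. All 6 leukocyte genes were called higher in KLG4 (log2 fold change 2.12 to 4.35, against 20.6% of tested genes called higher), and Ptprc was at 0.834 and 2.06 RPKM in KL and at 26.7 and 27.4 RPKM in KLG4. The summed level of that list ran from 17.6 to 21.2 RPKM in KL and from 151.8 to 154.4 RPKM in KLG4. T cell (7 of 7 tested), neutrophil (6 of 6) and fibroblast (6 of 6) lists were called higher as well, 5 of the T cell, 2 of the neutrophil and 2 of the fibroblast genes being under 1 RPKM in both KL libraries. The 7 epithelial genes tested were all called lower (median -1.03), against 19.6% of tested genes. No defining gene of these lists was at 0 in the KLG4 libraries. The members were also set against the mean of the 6 leukocyte genes in each library, an alternative chosen after seeing the data. They were still higher in KLG4 by 2.49 (Ighg1) to 4.94 (Ighg3), all with an adjusted p of 7.6e-04 or less in limma. On that scale 2.47% of tested genes were called higher. Because 8 of the 9 members reached the filter only with the KLG4 libraries, these p-values are a description. Centring lowered every log2 fold change by 3.42. Eif2s3y, nearly unchanged before (-0.07), then stood at -3.49 and was called lower, so a lower call there does not mean a lower level. By the same measure the B cell genes Cd79a (-0.20) and Ebf1 (-0.13) were near 0 and not called, and Cd79b was called lower (-2.57). Of the survival and recruitment genes none was called higher on that scale and 4 were called lower. In the plasma cell list 2 genes were called higher on that scale (Mzb1, 1.37, and Irf4, 1.00) and 7 lower, from -4.78 (Sdc1) to -0.92 (Prdm1). Igkc was 60.3 and 59.96 times the level of Ptprc in KLG4 tumor cells and 8.07 and 12.7 times in KL. The part of such cells in the antibody signal was not tested.

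**Figure D4:**
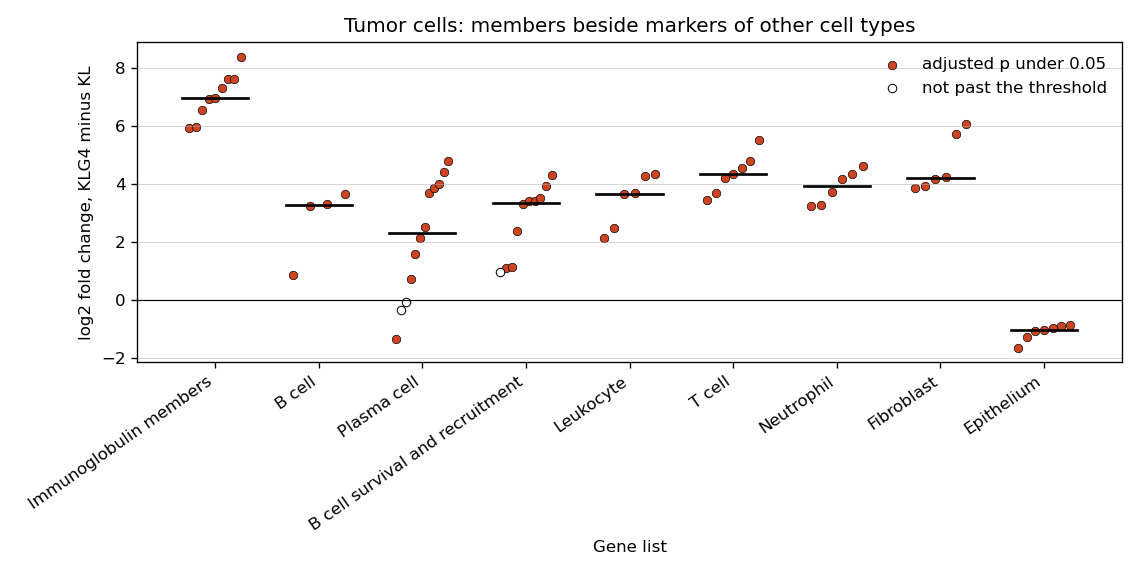
Log2 fold change (KLG4 minus KL) in tumor cells of each tested gene in the members and in marker lists (points are genes, filled where the adjusted p is under 0.05, and bars are medians). The members (median 6.96) lie above the B cell (3.26), plasma cell (2.32) and leukocyte (3.66) lists, and the epithelial genes lie below 0.

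In TRMs the members were low and tended to the opposite side, though none was called in limma (0 of 3 tested, 1.8% of all tested genes called; 2 of the 3, and 28.3% of all tested genes, had an unadjusted p under 0.05). Of the 5 listed members, 4 were lower in both KLG4 libraries than in either KL library, as were 10.7% of listed genes. Igkc was at 12.6 and 11.3 RPKM in KL and at 5.12 and 5.12 RPKM in KLG4, with a log2 fold change of -1.21 (95% confidence interval -1.71 to -0.70, adjusted p 0.053 in limma), beside a median of 0.38 over all tested genes. Its KL libraries rested on 67 and 55 reads and its KLG4 libraries on 73 and 32. The call was on the threshold and turned with the setting: a filter at a mean of 5 RPKM gave an adjusted p of 0.033 and rescaling to reads outside mitochondrial genes gave 0.068 (log2 fold change -1.59), both in limma.

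Ighg2c was at 3.47 and 1.49 RPKM in KL TRMs and at 0.169 and 0 RPKM in KLG4, that is 46 and 18 reads against 6 and 0. The log2 fold change was -3.86 (95% confidence interval -5.85 to -1.86, adjusted p 0.065 in limma), and limma-voom on the recovered reads gave 0.024. It reached the filter only through its KL libraries and so had to differ, so these p-values are a description. Ighm overlapped between genotypes, at 3.23 and 1.45 RPKM in KL and 1.94 and 1.40 RPKM in KLG4 (-0.38, adjusted p 0.62 in limma). Ighg1 (0.887 and 0.844 RPKM in KL, 0 and 0.263 RPKM in KLG4) and Jchain (0.795 and 0.522 RPKM in KL, 0.297 and 0.270 RPKM in KLG4) did not reach the filter. In share of the heavy-chain level, Ighm made up 42.6% and 38.4% in KL and 92.0% and 84.2% in KLG4, on 130 and 63 reads in KL and 104 and 39 reads in KLG4. Igha was not listed in TRMs.

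B cell markers were scarce in TRMs. Of the 14 B cell genes, 3 were listed, 2 were tested and none was called, and Cd79a and Ms4a1 were not listed. Of the plasma cell list 8 genes were tested and Slamf7, which macrophages also express, was called higher in KLG4, at 12.04 and 11.6 RPKM against 3.23 and 2.82 RPKM (log2 fold change 1.94, adjusted p 0.035 in limma, where 1.8% of tested genes were called), while Mzb1 was not listed. Scaled to reads outside mitochondrial genes Slamf7 lost its call (1.56, adjusted p 0.076 in limma). Pigr was lower in both KLG4 libraries (0.510 and 0.634 RPKM against 1.69 and 1.85 RPKM, adjusted p 0.11 in limma). Epithelial genes summed to 127.5 and 145.5 RPKM in KL and to 65.7 and 105.1 RPKM in KLG4, and their part in the antibody signal was not tested.

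In MDMs the members were present at low levels in both genotypes, and no difference between genotypes was called in limma (0 of 5 tested, 0% of all genes called; none of the 5, and 6.74% of all tested genes, had an unadjusted p under 0.05). Igkc was at 31.2 and 41.7 RPKM in KL and at 36.7 and 22.8 RPKM in KLG4 (log2 fold change -0.32, 95% confidence interval -1.15 to 0.52). Ighm was lower in both KLG4 libraries, at 7.59 and 3.50 RPKM against 11.5 and 8.28 RPKM (-0.90, interval -2.06 to 0.25, adjusted p 0.68 in limma). These intervals leave room for changes of more than 1 log2 unit. Both genotypes overlapped in Igha (1.64 and 1.84 RPKM in KL, 1.97 and 1.11 RPKM in KLG4), in Jchain (2.01 and 3.29 RPKM against 2.80 and 1.31 RPKM) and in Ighg2c (0.975 and 3.34 RPKM against 2.60 and 0.232 RPKM).

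Ighg2b, at 1.29 and 0.792 RPKM in KL and 0.716 and 0.287 RPKM in KLG4, and Ighg1, at 0.0416 to 0.744 RPKM over the 4 libraries, did not reach the filter in MDMs. Members lower in both KLG4 libraries numbered 2 of 7 listed, against 21.6% of all listed genes. Ighm led the heavy-chain level in each MDM library (55.2% to 74.4%), with Igha at 10.6% to 20.5%. The level of Jchain was 5.75% to 7.90% of that of Igkc, near the 6.26% and 6.80% of KLG4 tumor cells. KLG4 replicate 2 had the lowest Igkc, Ighm and Jchain of the MDM libraries. Of the 14 B cell genes only Cd22 and Bank1 were listed in MDMs. Only 1 of them was tested, and it was not called. Of the 14 plasma cell genes, 9 were listed and 8 tested in MDMs, none called, among them Xbp1 (20.02 to 38.2 RPKM) and Tnfrsf13b (5.03 to 8.93 RPKM), while Mzb1 and Pou2af1 were not listed.

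The genes whose levels followed the members most closely over libraries were found by Pearson's r of log2(RPKM + 0.1) among 11499 genes outside the immunoglobulin loci. For Ighm over 12 libraries they were Slc43a3 (r 0.97), Tnfsf13b (0.94), Mmp2 (0.93), Galnt15 (0.93) and Thbs4 (0.92). For Jchain over 12 libraries they were Slc43a3 (0.97), Mmp2 (0.94), Galnt15 (0.94), Tnfsf13b (0.94) and Heg1 (0.94). For Igha, which only 8 libraries have, they were Mmp2 (1.00), Tnfsf13b (0.99), Kdm2b (0.99), Thbs4 (0.99) and Kif24 (0.99). Tnfsf13b encodes BAFF, a survival factor of B cells, and was at 0.135 and 0.202 RPKM in KL tumor cells and at 2.51 and 2.58 RPKM in KLG4. The libraries compared share their cell population and the KLG4 tumor pair lies far from the rest, so these values describe that contrast.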

How the data were processed

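Poly(A) RNA of sorted cells was sequenced as paired reads of 150 bases after a library preparation that does not keep strand. According to the methods and labels, the authors trimmed reads with Trim Galore (0.6.4), mapped them with HISAT2 (2.0.5) and counted them per gene with featureCounts (2.0.0) at default settings, which leave out reads with several matches and ignore strand. The deposited values are RPKM, as the authors' table is named, although the methods speak of FPKM. Columns of the authors' own comparisons were not used.

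The 10 members and the gene lists were chosen with earlier results of these data known. RPKM multiplied by gene length came in whole steps in each library (100% of values under 2000 reads within 0.05 of a whole number), which gave reads per gene and depth. Odd numbers of reads were only 17.0% to 31.4% of those below 30, so most fragments were counted as 2 reads. Each table was tested alone with limma 3.58.1 (R 4.3.3, trend, no block) on log2(RPKM + 0.1) for genes with at least 1 RPKM in 2 of 4 libraries, at an adjusted p of 0.05, and the fit was tested on simulated data. The text names all members, the other constant genes, up to 4 called genes of each list and population with the largest changes, unlisted or invariant markers where a result needs them, and the 5 genes most like Ighm, Igha and Jchain. Xbp1, Sdc1, Bcl6 and Pigr, markers of other cells and the genes in the last section were added after their values were seen, and some genes and an allele are not reported here. Alternatives covered the pseudocount (1 and 0.01), the filter, scaling, trend, limma-voom on recovered reads, a replicate block and leaving out each library. Members in the 5 samples not used were not analysed here. The replicate numbers did not pair the samples (correlations 0.019 in tumor cells, -0.060 in TRMs and 0.054 in MDMs).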

Additional observations from a re-analysis of the deposited data

Results flagged for a closer look

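For 6 members both KLG4 values exceeded both KL values in tumor cells and fell short of both in a macrophage population. The differences between the 2 log2 fold changes (tumor cells minus the other population) were 8.25 for Ighg1, 9.83 for Ighg2c, 8.13 for Igkc and 8.57 for Jchain against TRMs, and 7.86 for Ighm and 8.29 for Ighg2b against MDMs. These differences were not tested, since the tables were normalized separately, and none of the macrophage fold changes behind them had an adjusted p under 0.05 in limma (Ighg1 and Jchain in TRMs and Ighg2b in MDMs did not reach the filter).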

How the results depend on the processing

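In tumor cells the number of members called stayed at 8 or 9 under every alternative run. Of 144 member fold changes under alternatives there, 141 kept their call and 3 lost it, all of Ighg2c: without KLG4 replicate 1, without KLG4 replicate 2, or with both as 1 sample (adjusted p 0.062, 0.063 and 0.064 in limma). Where 1 library was left out, its group's lone library is assumed to vary like the other group, and in tumor cells without a KL library that spread is that of the close KLG4 pair. The number of members called then ranged from 8 to 9, that of the B cell list from 3 to 4 and that of the plasma cell list from 8 to 11. Centred on leukocyte genes, a scale that lowers every fold change, the plasma cell list had 2 higher and 7 lower calls, against 9 and 1. The B cell list gave 11 calls with no filter and 1, a lower one, when centred on leukocyte genes, and no B cell gene was left at a mean of 5 RPKM, where the plasma cell list gave 3.

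In TRMs, where no member was called, pseudocount 1, a mean of at least 5 RPKM and limma-voom gave 1 each and the replicate block gave 2 (Ighg2c and Igkc, adjusted p 0.043 and 0.049). Leaving out 1 library gave 0 to 2, with 2 without KL replicate 2 (Ighg2c and Igkc). Ighm turned to 0.17 without KL replicate 1 (range -0.93 to 0.17). The B cell list, with no call, gave 1 under limma-voom and 0 to 1 without 1 library. The plasma cell list, with 1 call, gave 0 under quantile scaling, without mitochondrial reads and without the trend, 2 under limma-voom and under the replicate block, and 0 to 3 without 1 library (3 without KL replicate 2, 0 without KLG4 replicate 1).

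In MDMs no member was called under any alternative. Without KLG4 replicate 2, 4 members turned sign: Ighg2c (0.49, range -2.54 to 0.49), Igha (0.17, range -0.60 to 0.17), Igkc (0.026, range -0.66 to 0.026) and Jchain (0.12, range -0.92 to 0.12). The plasma cell list gave 0 to 3 calls without 1 library (3 without KL replicate 1). The replicate block, run although the numbers do not pair the samples, changed no call of the members in tumor cells or MDMs.

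The mean share of Igha in the heavy-chain level was 9.23% in KL and 16.6% in KLG4 tumor cells, and 11.5% and 17.6% in MDMs. With recovered reads it was 22.1% in KLG4 tumor cells and 15.6% and 23.0% in MDMs, and with the shortest transcript length 14.2% and 23.6% in tumor cells and 18.6% and 27.0% in MDMs. The Iglc2 share of light chains in KLG4 tumor cells was 1.14% by reads. With Iglc1 and Iglc3 the lambda share was 3.33% in KL, on few lambda reads, and 6.22% in KLG4. The causes were not tested. Values of a few reads, as in TRMs, limit what the depth can show.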

Other observations

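Other survival factors of antibody-making cells were read in the same tables, chosen after their values were seen. Tnfsf13, which encodes the plasma cell survival factor APRIL, was at 6.69 and 9.03 RPKM in KL tumor cells and at 16.3 and 17.9 RPKM in KLG4 (log2 fold change 1.13, SE 0.19, adjusted p 0.0071 in limma). In TRMs it was at 153 to 193 RPKM with no call (adjusted p 0.36 in limma), and in MDMs at 24.4 to 77.4 RPKM. Il6, a cytokine that supports plasma cells among many other actions, was at 7.24 and 6.06 RPKM in KL tumor cells and at 35.5 and 34.7 RPKM in KLG4 (log2 fold change 2.39, SE 0.14). Set against the leukocyte genes both turned to lower in KLG4 (Tnfsf13 -2.30, Il6 -1.04, both with an adjusted p under 0.05 in limma). That scale lowers every log2 fold change by 3.42, and Eif2s3y, nearly unchanged before, was called lower on it too (-3.49). With the KLG4 libraries as 1 sample Tnfsf13 lost its call. Levels of different tables were normalized separately.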
